A study of Mus musculus with 20 samples.

Results

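The circadian clock genes Clock, Npas2, Per1, Per2, Per3, Cry1, Nr1d1, Nr1d2, Dbp and Ciart were followed in mouse liver exposed to perfluorooctanoic acid (PFOA), a persistent fluorinated surfactant. They are 10 of the 53599 gene symbols counted in bulk liver RNA and were taken by name from both count tables. All 10 passed the filter on low counts in every comparison with no library left out. Male and female mice were either PPARa knockouts (KO), which lack the nuclear receptor that senses fatty acids, or expressed a human PPARa transgene (hPPARa). The promoter that drives the transgene, the strain and the state of the mouse gene in these animals are not stated in what was read here. From weaning and for 6 to 7 weeks, vehicle groups drank water with 0.5% sucrose and PFOA groups the same water with 8 µM PFOA, and all groups ate a diet with 51.8% of its energy from carbohydrate, 33.5% from fat and 14.7% from protein. The 20 libraries formed 8 groups. Among hPPARa mice these were 3 females and 2 males on vehicle and 2 females and 3 males on PFOA. Among KO mice they were 1 female and 3 males on vehicle and 3 of each sex on PFOA.

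The mammalian clock is a loop of transcription factors. CLOCK, or its close relative NPAS2, pairs with BMAL1 (encoded by Arntl) and switches on genes that carry an E-box, among them the Per and Cry genes, whose proteins return to the nucleus and silence CLOCK and BMAL1. The nuclear receptors REV-ERBα (Nr1d1) and REV-ERBβ (Nr1d2) form a second arm, which represses Arntl, Npas2, Clock and Cry1. Dbp, a factor that binds the D-box, and Ciart, a repressor of CLOCK and BMAL1, are driven by the first arm and swing widely over the day in liver. In mouse liver, transcripts of Dbp, Ciart and the Per genes peak in the later day and around nightfall, while those of Arntl and Npas2 peak near the end of the night and in the morning, so a single liver sample also reads the hour at which it was taken. The labels give no hour of collection for any sample. An effect of PFOA on the clock and a difference in the hour of collection between the groups therefore cannot be told apart in any comparison below.

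The short elements through which these genes are wired to each other can be read in their promoters. RefSeq promoters (build GRCm38.p6, from 250 bases before to 50 bases after the start of transcription) were found for 9 of the 10 genes, 12 promoters in all, since Clock had 3 and Per1 had 2. Per2 had no entry. On both strands, the E-box CACGTG stood in 3 of the 12, where 7.15% of all 32851 promoters of the same length held it, and its variant CACGTT in 2 (Cry1 and Nr1d1), against 4.68% of all promoters. The D-box TTANGTAA stood in 1 promoter, against 2.32%, and the element of the REV-ERB receptors, TAGGTCA, in 0, against 2.61%. The 4 promoters below, shown from base 220 to base 31 before the start, carry a motif in a gene that the results turn on. Capitals mark a motif on either strand, and no motifs overlapped. Per1 has its E-box 166 bases before the start in the promoter shown and none in its other one. In Cry1 the variant stands 79 bases and the E-box 60 bases before the start. Ciart has E-boxes at 116, 58 and 44 bases, and Per3 has D-boxes at 205 and 158 bases. A match is a run of letters and does not show binding.
Per1, chr11:69098729-69098918 (+): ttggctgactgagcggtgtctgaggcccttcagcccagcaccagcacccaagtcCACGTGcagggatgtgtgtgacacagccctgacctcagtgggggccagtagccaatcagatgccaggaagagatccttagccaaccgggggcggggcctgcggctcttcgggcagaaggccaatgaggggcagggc
Per3, chr4:151044696-151044885 (−): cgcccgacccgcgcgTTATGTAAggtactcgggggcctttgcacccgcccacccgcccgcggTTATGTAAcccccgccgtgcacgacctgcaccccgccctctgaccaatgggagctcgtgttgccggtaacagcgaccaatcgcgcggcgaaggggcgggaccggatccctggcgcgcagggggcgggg
Cry1, chr10:85185085-85185274 (−): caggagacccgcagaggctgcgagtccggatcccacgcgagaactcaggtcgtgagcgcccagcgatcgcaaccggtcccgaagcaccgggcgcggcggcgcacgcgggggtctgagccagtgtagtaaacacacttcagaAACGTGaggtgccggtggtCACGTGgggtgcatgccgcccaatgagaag
Ciart, chr3:95882259-95882448 (−): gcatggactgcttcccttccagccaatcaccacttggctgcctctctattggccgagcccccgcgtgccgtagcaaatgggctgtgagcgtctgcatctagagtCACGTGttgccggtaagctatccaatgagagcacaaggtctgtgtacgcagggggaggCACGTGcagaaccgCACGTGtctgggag

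Total counts ran from 14973673 to 17953860 per library. Levels below are counts scaled to the library total (CPM), adjusted for composition with TMM factors, and they do not correct for gene length, so levels are compared within a gene only. Whether a group's samples are separate animals is not in the labels, and the p-values then describe only how far these samples spread, which may be technical. In bulk tissue fewer cells of a type and less RNA per cell cannot be told apart. Ppara counts ran from 16.9 to 39.6 CPM in hPPARa and from 8.42 to 25.1 CPM in KO livers. Which part of the gene the knockout lacks is not stated in what was read here, and the genotypes are used as labelled, since these counts cannot test them. All hepatocyte markers listed here were detected, with a summed level of 65700 to 202000 CPM. In 3 KO libraries some transcripts matched the other sex: KO female vehicle replicate 1 and KO female PFOA replicate 2 held 1.86 and 4.06 CPM of the Y-linked Ddx3y, where the other females held at most 0.415 CPM, and KO male PFOA replicate 2 held 30.8 CPM of Xist, where the other males held at most 4.40 CPM.

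Before any comparison, 2 libraries stood apart in the clock genes. hPPARa female PFOA replicate 2 and KO female PFOA replicate 1 held the lowest Ciart (3.24 and 2.08 CPM) and the lowest Per2 (10.3 and 9.70 CPM), together with the highest Arntl (6.70 and 6.98 CPM) and Npas2 (2.56 and 3.04 CPM) of all 20 libraries. Log2 levels were centred on each gene's mean and averaged over the day and evening genes Per1, Per2, Per3, Nr1d1, Nr1d2, Dbp and Ciart, and the same average over Clock, Npas2 and Cry1 was subtracted. This difference was −1.83 and −1.74 in these 2 libraries and −0.97 in hPPARa male PFOA replicate 1, and lay between −0.35 and 0.97 in the other 17. The low libraries were all on PFOA, 1 in each of 3 groups, while the other 5 libraries of the same groups lay between −0.35 and 0.63 and those on vehicle between −0.30 and 0.97. KO female PFOA replicate 2, for example, had a difference of 0.63, with 32.4 CPM of Ciart and 0.549 CPM of Arntl. Cry1 followed the Per genes in these libraries rather than Clock and Npas2. Nr1d1 did not follow its set either: it stood 0.13, 0.96 and 0.69 above its mean (log2) in hPPARa female PFOA replicate 2, KO female PFOA replicate 1 and hPPARa male PFOA replicate 1.

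**Figure D1:**
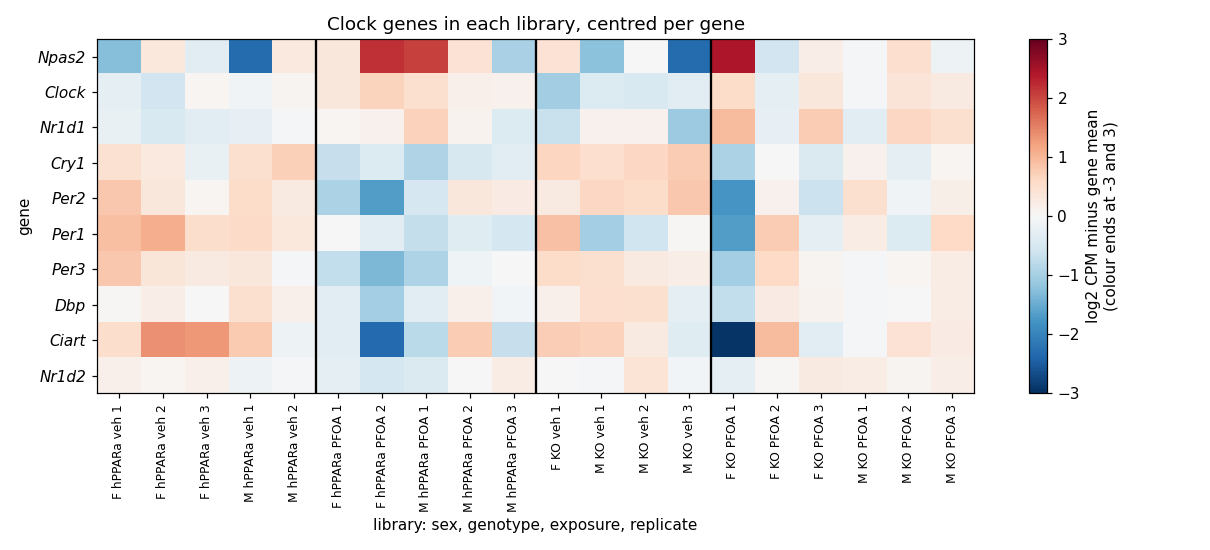
Colour map of the 10 clock genes (rows) in the 20 libraries (columns, named by sex, genotype, exposure and replicate), as log2 CPM minus the gene's mean over all libraries, with vertical lines between the vehicle and PFOA libraries of each genotype. hPPARa female PFOA replicate 2 and KO female PFOA replicate 1 carry the deepest blue for Ciart and red for Npas2, and Cry1 is below its mean in all 5 hPPARa libraries on PFOA.

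With PFOA in hPPARa livers, the activator Clock rose and the repressors Cry1, Per1 and Per3 and the output factor Dbp fell. These were 5 of the 10 clock genes, 1 higher and 4 lower, in edgeR's quasi-likelihood F test, with p-values adjusted by Benjamini and Hochberg's method over 14400 genes, where 22.6% of all genes tested passed (12.8% higher and 9.76% lower). Per2, Ciart, Npas2, Nr1d1 and Nr1d2 did not pass. An unadjusted p under 0.05 was held by 8 of the 10, beside 5202 of all 14400 genes. The median log2 fold change of the 10 genes was −0.76, against −0.01 over all genes. In KO livers Clock rose and Cry1 fell, 2 of the 10 genes, where 13.8% of 15334 genes passed (7.41% higher and 6.36% lower), and the median of the 10 was −0.09 against −0.02 over all genes. In KO livers the 2 that passed were also the 2 with an unadjusted p under 0.05, beside 4459 of all 15334 genes. The count in hPPARa was 2 without hPPARa female PFOA replicate 2, 3 without hPPARa male vehicle replicate 1 and 4 to 6 without any other library, and 2 (Cry1 and Per1) without both hPPARa PFOA libraries that had the lowest Ciart, hPPARa female PFOA replicate 2 and hPPARa male PFOA replicate 1. Npas2 did not pass the filter in the next 2 KO settings, so 9 of the 10 genes were tested there. The count in KO was 0 without KO female vehicle replicate 1, the only female on vehicle, and 0 without the 3 libraries with transcripts of the other sex. It was 2 without any other single library, and 2 without both KO PFOA libraries with the lowest Ciart, KO female PFOA replicates 1 and 3. The low-Ciart libraries were picked among those on PFOA alone. Leaving them out shrinks a fall in Ciart, and in genes that follow it, by that choice. Calls lost in that setting, here and below, are therefore not an independent check.

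**Figure D2:**
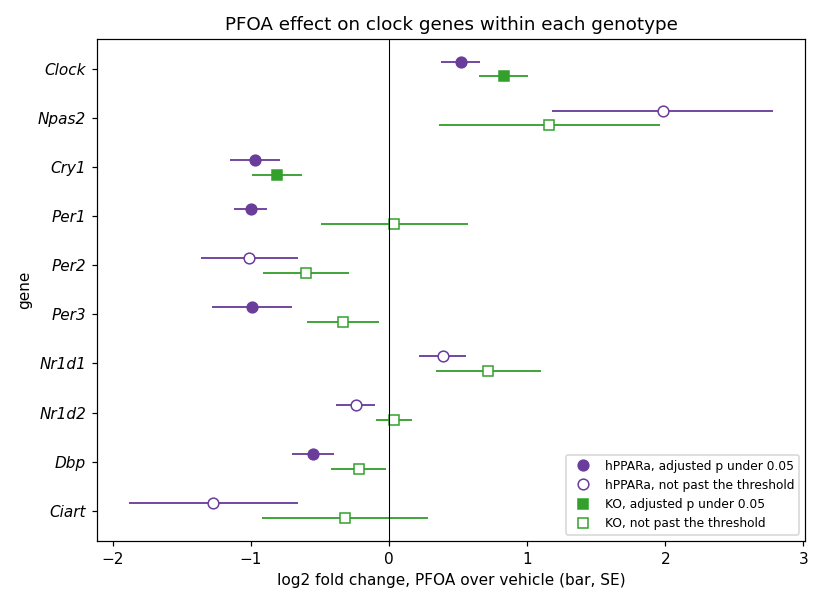
Log2 fold changes of the 10 clock genes with PFOA over vehicle (x axis) in hPPARa (circles) and KO livers (squares), with bars for the SE and filled marks for an adjusted p under 0.05. Clock lies right of 0 and Cry1 left of 0 with filled marks in both genotypes, while Per1 lies at −1 in hPPARa and at 0.04 in KO.

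Clock, the DNA-binding partner of BMAL1, was higher on PFOA in both genotypes. Its levels in hPPARa livers on vehicle were 17.9, 14.7 and 23 CPM in females and 20.3 and 23.1 CPM in males. On PFOA they were 27.7 and 35.0 CPM in hPPARa females and 30.7, 24.6 and 23.8 CPM in hPPARa males. All 5 hPPARa libraries on PFOA lay above all 5 on vehicle, the nearest of them by less than 1 CPM. Among all genes tested in hPPARa, 14.3% separated the 2 exposures in this way, 8.64% with PFOA above. The change in hPPARa was 1.43-fold (log2 fold change 0.52 ± 0.14 SE, adjusted p = 0.0191 by edgeR). The call was lost without hPPARa female PFOA replicate 2 (0.40, adjusted p = 0.0847) and without both low-Ciart PFOA libraries (0.34, adjusted p = 0.131).

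In KO livers Clock stood at 10.6 CPM in the vehicle female and at 16.5, 15.9 and 17.6 CPM in the vehicle males. On PFOA it stood at 32.3, 18.3 and 27.8 CPM in KO females and at 21.5, 28.7 and 26.8 CPM in KO males. Again all PFOA libraries lay above all vehicle libraries, a separation that 9.65% of the genes tested in KO showed (5.67% with PFOA above). The change was 1.78-fold (0.83 ± 0.18 SE on the log2 scale, adjusted p = 0.0102 by edgeR). It was 0.62 (adjusted p = 0.0577) without KO female vehicle replicate 1, whose 10.6 CPM was the lowest of all libraries, and 0.53 (adjusted p = 0.0697) without the 3 libraries with transcripts of the other sex. When the 8 groups were ordered by mean Clock level, the 4 PFOA groups came first, at 31.4 ± 5.18 CPM (SD, n = 2) in hPPARa females, 26.4 ± 3.77 (n = 3) in hPPARa males, 26.1 ± 7.15 (n = 3) in KO females and 25.7 ± 3.73 (n = 3) in KO males. The vehicle groups followed at 21.7 ± 2.03 CPM (n = 2) in hPPARa males, 18.5 ± 4.15 (n = 3) in hPPARa females, 16.7 ± 0.844 (n = 3) in KO males and 10.6 CPM in the KO female. Of the 7 pairs of neighbours in this order, 6 overlapped in their libraries; only the KO vehicle male and female groups did not.

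Npas2, which can stand in for CLOCK, was scarce, with 0 to 57 counts in a library. On vehicle it was between 0 and 0.671 CPM in every library of both genotypes. On PFOA, 3 libraries were above 2 CPM, hPPARa female replicate 2 at 2.56, hPPARa male replicate 1 at 2.30 and KO female replicate 1 at 3.04 CPM, and the other 8 lay between 0.181 and 0.718 CPM. Its log2 fold changes of 1.98 ± 0.80 in hPPARa (adjusted p = 0.104) and 1.16 ± 0.80 in KO (adjusted p = 0.365) did not pass edgeR's test. In hPPARa Npas2 passed in DESeq2 (1.99, adjusted p = 0.0462) and in edgeR when genes with low counts were kept in (2, adjusted p = 0.0172). Arntl, the partner of both proteins, was highest in hPPARa female PFOA replicate 2 and KO female PFOA replicate 1, as Npas2 was, and then in hPPARa female PFOA replicate 1 (3.43 CPM), where Npas2 was at 0.618 CPM. Arntl was at 0.811 to 1.88 CPM on vehicle and at 0.549 to 6.98 CPM on PFOA, with log2 fold changes of 1.41 ± 0.52 in hPPARa (adjusted p = 0.0766) and 1.03 ± 0.58 in KO (adjusted p = 0.277).

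Cry1, the cryptochrome that holds CLOCK and BMAL1 silent late in the night, fell in both genotypes. In hPPARa livers on vehicle its levels were 8.23, 7.36 and 5.12 CPM in females and 8.45 and 9.93 CPM in males. On PFOA they were 3.65 and 4.49 CPM in hPPARa females and 3.15, 4.27 and 4.82 CPM in hPPARa males. Every hPPARa library on PFOA lay below every one on vehicle, as 5.67% of all genes did in that direction. The fall was 1.96-fold (log2 fold change −0.97 ± 0.18 SE, adjusted p = 0.00157 by edgeR), and it passed without each of the 10 libraries in turn and without both low-Ciart libraries.

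In KO livers Cry1 stood at 9.40 CPM in the vehicle female and at 8.55, 9.26 and 10.3 CPM in the vehicle males. On PFOA it stood at 3.04, 6.04 and 4.38 CPM in KO females and at 6.61, 4.84 and 6.19 CPM in KO males. The exposures did not overlap, as for 3.97% of all genes in that direction, and the fall was 1.75-fold (−0.81 ± 0.18 SE, adjusted p = 0.0102 by edgeR). It was −0.67 (adjusted p = 0.0839) without KO female vehicle replicate 1 and −0.55 (adjusted p = 0.188) without the 3 libraries with transcripts of the other sex. By mean level the 4 vehicle groups came first, at 9.40 CPM in the KO female, 9.36 ± 0.873 (SD, n = 3) in KO males, 9.19 ± 1.05 (n = 2) in hPPARa males and 6.90 ± 1.61 (n = 3) in hPPARa females. The PFOA groups followed from 5.88 ± 0.921 CPM (n = 3) in KO males down to 4.07 ± 0.589 CPM (n = 2) in hPPARa females. In this order 6 of the 7 pairs of neighbours overlapped.

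Per1, a period protein gene that also answers directly to glucocorticoids and other signals, fell with PFOA in hPPARa livers. Vehicle levels were 68.4, 78.0 and 52.5 CPM in hPPARa females and 54.0 and 45.3 CPM in hPPARa males. PFOA levels were 36.5 and 29 CPM in hPPARa females and 22.1, 28.3 and 25.4 CPM in hPPARa males. All 5 libraries on PFOA lay below all 5 on vehicle, as for 5.67% of all genes tested in hPPARa. The fall was 2-fold (−1 ± 0.12 SE, adjusted p = 8.09e-05 by edgeR). It passed without each library in turn (adjusted p = 5.29e-05 to 0.000735), but not in a joint fit of all 20 libraries, which shares 1 spread over both genotypes (−1, adjusted p = 0.0656).

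In KO livers Per1 did not pass. It stood at 67.3 CPM in the vehicle female and at 18, 24.2 and 37.6 CPM in the vehicle males. On PFOA it stood at 11.4, 61.3 and 29.6 CPM in KO females and at 42.4, 27.7 and 55.4 CPM in KO males. The exposures overlapped over nearly the whole range, and the log2 fold change was 0.04 ± 0.53 (adjusted p = 0.976 by edgeR), with a sign that changed with the library left out. The difference between the genotypes' responses was itself 1.03 ± 0.56 (KO minus hPPARa, log2) and did not pass (adjusted p = 0.443). By mean level, Per1 was highest in the KO female on vehicle (67.3 CPM) and hPPARa females on vehicle (66.3 ± 12.9 CPM, SD, n = 3) and lowest in hPPARa males on PFOA (25.3 ± 3.13 CPM, n = 3), and all 7 pairs of neighbouring groups overlapped.

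Per2, a core repressor of the loop, ranged 6.04-fold over the 20 libraries. In hPPARa it was at 58.6, 41.8 and 35.0 CPM in vehicle females, 48.3 and 40.1 CPM in vehicle males, 17.3 and 10.3 CPM in PFOA females and 23.4, 42.2 and 39.7 CPM in PFOA males. The 2 PFOA females and the first PFOA male lay below every vehicle library, and the other 2 PFOA males lay among them. Its log2 fold change of −1.01 ± 0.35 in hPPARa did not pass edgeR's test (adjusted p = 0.0712), and did pass in DESeq2 (−1.02, adjusted p = 0.00168) and in the joint fit (−1.02, adjusted p = 0.0278). In KO it was at 40.1 CPM in the vehicle female, 51.8, 49.1 and 58.2 CPM in vehicle males, 9.70, 36.6 and 21.2 CPM in PFOA females and 46.1, 31.0 and 37.4 CPM in PFOA males. There, 5 of the 6 PFOA libraries lay below every vehicle library, and the log2 fold change was −0.60 ± 0.31 (adjusted p = 0.247).

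Per3, the third period gene, was at 104, 76.5 and 72.2 CPM in vehicle females and 75.4 and 57.4 CPM in vehicle males of hPPARa. On PFOA it was at 35.5 and 23.3 CPM in hPPARa females and 31.1, 54.6 and 58.7 CPM in hPPARa males. Only hPPARa male PFOA replicate 3 reached the lowest vehicle library. The fall was 1.99-fold (−0.99 ± 0.29 SE, adjusted p = 0.0359 by edgeR), a call near the threshold that held without 4 of the 10 libraries and was lost without hPPARa female vehicle replicates 2 and 3, male vehicle replicate 1, female PFOA replicates 1 and 2 and male PFOA replicate 1 (−0.75 to −1.06, adjusted p = 0.0539 to 0.126). Without both low-Ciart libraries it was −0.64 (adjusted p = 0.112). The call in hPPARa was also lost with the replicate number as a block (−1, adjusted p = 0.0591 by edgeR). It was lost with genes of low counts kept in as well (−0.98, adjusted p = 0.123). In KO, Per3 was at 67.6 to 87.0 CPM on vehicle and at 29, 89.5, 62.5, 57.4, 62.2 and 69.7 CPM on PFOA. Its log2 fold change in KO was −0.33 ± 0.26 (adjusted p = 0.438).

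With the sexes combined, the REV-ERB genes did not pass in either genotype. Nr1d1 was at 67.5 to 89.5 CPM in the 5 hPPARa vehicle libraries and at 97.5, 102, 150, 99.5 and 69.4 CPM on PFOA. Only hPPARa male PFOA replicate 3 lay within the vehicle range, and the log2 fold change was 0.39 ± 0.17 (adjusted p = 0.117 by edgeR). Without that library it was 0.49 (adjusted p = 0.0145), and with genes of low counts kept in it was 0.4 (adjusted p = 0.00376). In KO, Nr1d1 ran from 43.4 to 102 CPM on vehicle and from 72.7 to 180 CPM on PFOA (0.72 ± 0.38, adjusted p = 0.257). Nr1d2 had the narrowest range of the 9 genes with a count in every library, 1.93-fold, from 56.3 to 109 CPM. Its log2 fold changes were −0.24 ± 0.14 in hPPARa (adjusted p = 0.247) and 0.04 ± 0.13 in KO (adjusted p = 0.862). So Nr1d1 and Nr1d2, which belong to the same arm, had log2 fold changes of opposite sign in hPPARa, neither past the threshold.

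Dbp, the D-box activator and a common marker of clock output in liver, fell in hPPARa. Its levels were 153, 172 and 150 CPM in hPPARa vehicle females and 207 and 165 CPM in vehicle males. On PFOA they were 120 and 74.1 CPM in hPPARa females and 119, 167 and 140 CPM in hPPARa males. The groups overlapped through hPPARa male PFOA replicate 2 alone. The fall was 1.47-fold (−0.55 ± 0.15 SE, adjusted p = 0.0157 by edgeR). The call was lost when hPPARa male vehicle replicate 1 was left out (−0.53, adjusted p = 0.0525), without hPPARa female PFOA replicate 2 (−0.40, adjusted p = 0.0573), without both low-Ciart libraries (−0.33, adjusted p = 0.0764) and in the joint fit (adjusted p = 0.0527). In KO, Dbp was at 166 CPM in the vehicle female, 210, 210 and 124 CPM in vehicle males and 90 to 177 CPM on PFOA (−0.22 ± 0.20, adjusted p = 0.518).

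Ciart spread more than any other of the 9 genes with a count in every library, 21-fold from 2.08 to 43.7 CPM. In hPPARa it was at 24.1, 43.7 and 41.3 CPM in vehicle females, 29 and 15.1 CPM in vehicle males, 13.3 and 3.24 CPM in PFOA females and 9.57, 28.5 and 10.4 CPM in PFOA males. 4 of the 5 PFOA libraries were below every vehicle library, while male replicate 2 stood among them. The log2 fold change of −1.27 ± 0.61 did not pass (adjusted p = 0.178 by edgeR). It passed without that library alone (−1.68, adjusted p = 0.0465). In KO, Ciart was at 27.9 CPM in the vehicle female, 27.1, 20.5 and 13.1 CPM in vehicle males, 2.08, 32.4 and 13.5 CPM in PFOA females and 16.0, 22.7 and 20 CPM in PFOA males (−0.32 ± 0.60, adjusted p = 0.775). KO females on PFOA thus held both the lowest Ciart level of the series and 1 of its higher ones.

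**Figure D3:**
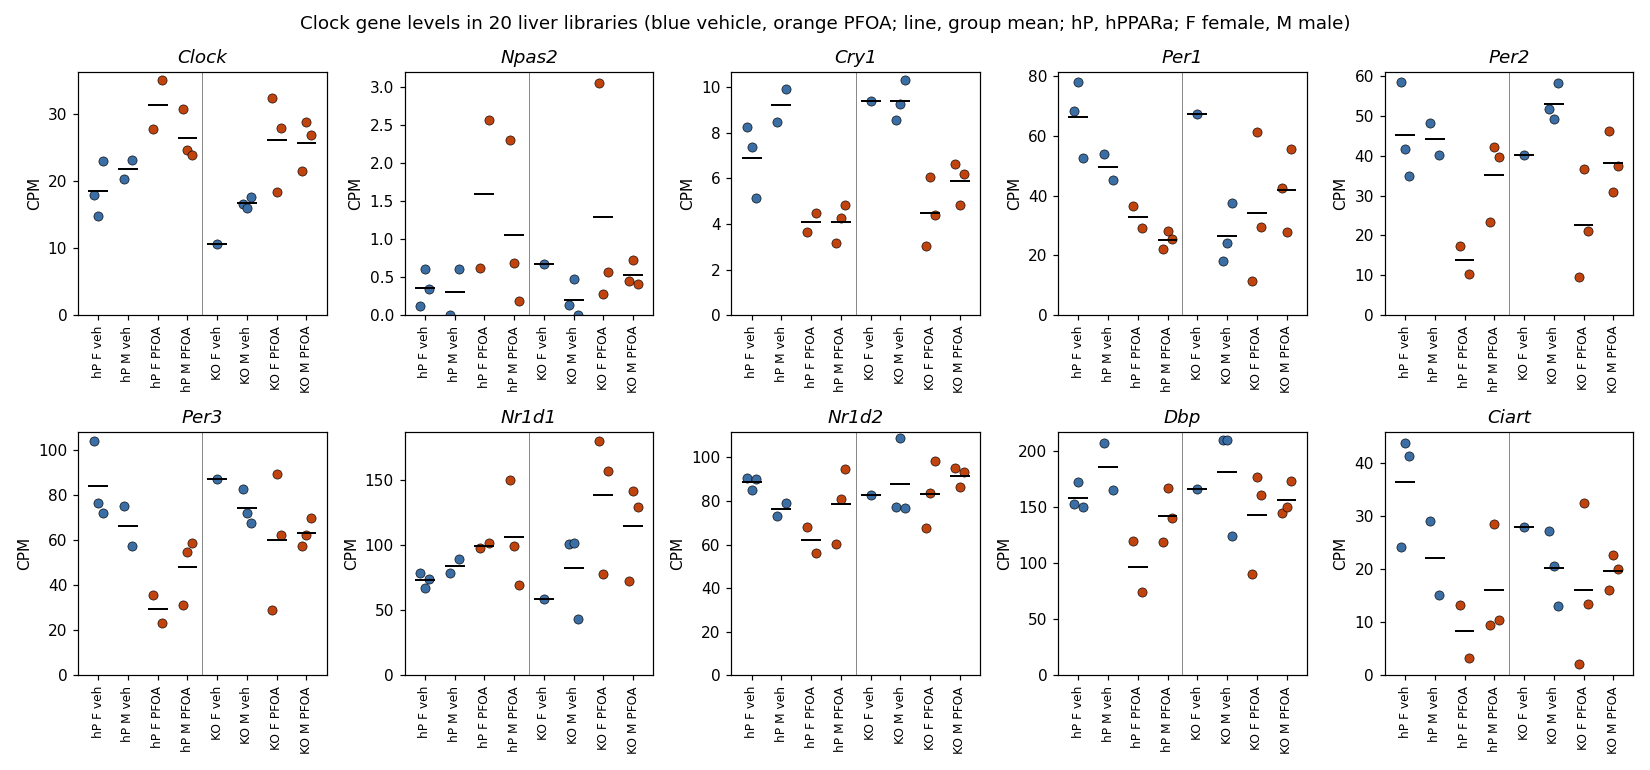
Levels of the 10 clock genes in CPM (y axes from 0), 1 panel a gene, with 1 point a library and a line at each group's mean, hPPARa groups left and KO groups right of the grey line, vehicle in blue and PFOA in orange. Orange points lie above blue for Clock and below blue for Cry1 within each genotype, while Per1 separates in hPPARa alone and Ciart overlaps in both.

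Within sexes, more of the clock genes passed the threshold between PFOA and vehicle in hPPARa females than in hPPARa males, but no difference between the sexes passed. That order was not kept without hPPARa female PFOA replicate 2. In hPPARa females 7 of the 10 genes passed, where 18.4% of all genes did (10.5% higher and 7.87% lower): Clock was higher, and Per1, Per2, Per3, Cry1, Dbp and Nr1d2 were lower. The largest of these were Per2 (−1.72 ± 0.34, adjusted p = 0.00907 by edgeR), from 35.0 CPM or more to 17.3 CPM or less, and Per3 (−1.53 ± 0.31, adjusted p = 0.00987). Arntl, which lay outside the 10, rose 5.63-fold in hPPARa females (2.49 ± 0.51, adjusted p = 0.00675), and was at 1.94 (adjusted p = 0.0828) without hPPARa female PFOA replicate 2 and at 1.93 (adjusted p = 0.0159) without both low-Ciart libraries. The count of 7 rests on 2 PFOA females, 1 of which stood apart: without hPPARa female PFOA replicate 2 it was 0, with Per1 nearest (−0.86, adjusted p = 0.0509), and it was 4 without hPPARa female vehicle replicate 1 or replicate 2. In hPPARa males 2 of the 10 passed, where 8.2% of all genes did (5.3% higher and 2.9% lower), Cry1 (−1.17 ± 0.24, adjusted p = 0.00841) and Per1 (−0.97 ± 0.17, adjusted p = 0.00372). Without hPPARa male vehicle replicate 1 Per1 did not pass (−0.85, adjusted p = 0.0643), and without replicate 2 Cry1 did not (−1.03, adjusted p = 0.0961).

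The response of males minus that of females in hPPARa passed for 0 of the 10 genes by edgeR and by DESeq2, where 0.104% of all genes passed by edgeR. Beside 1477 of all 14400 genes, 3 of the 10 had an unadjusted p under 0.05 in edgeR. These were Per2 (1.39 ± 0.45, adjusted p = 0.361), Per3 (1.07 ± 0.42, adjusted p = 0.443) and Nr1d2 (0.57 ± 0.23, adjusted p = 0.434), whose log2 fold changes in males alone were −0.33 ± 0.31, −0.46 ± 0.29 and 0.05 ± 0.16. Per1 and Cry1 had interaction values of 0.05 ± 0.25 and −0.40 ± 0.34. In KO males 0 of the 10 passed by edgeR, where 9.1% of all genes did. Beside 3824 of all 15334 genes, 2 had an unadjusted p under 0.05, Clock (0.63 ± 0.19, adjusted p = 0.0591) and Cry1 (−0.66 ± 0.22, adjusted p = 0.0854). In DESeq2 Clock passed (0.62, adjusted p = 0.0329). All 3 KO males on PFOA lay above all 3 on vehicle for Clock and below them for Cry1. The share of all genes that separate the KO males in this way was not computed, so this adds nothing to the tests. The KO female comparison sets 3 libraries against 1, which is assumed to vary like the other groups, holds transcripts of the other sex and has the lowest Clock of all 20. Clock was at 1.28 ± 0.29 in this comparison (adjusted p = 0.0259), where 5.31% of all genes passed (2.33% higher and 2.97% lower). It did not pass without KO female PFOA replicate 3 (1.23, adjusted p = 0.0584) or with the replicate number as a block (1.3, adjusted p = 0.0734), and with 1 vehicle library it has no replicate check. The sexes' responses in KO differed for 0 of the 10 genes by both tools, where 0.241% of all genes passed by edgeR. At an unadjusted p under 0.05 in edgeR were 0 of the 10, beside 1635 of all 15334 genes.

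Between males and females, additive for exposure, 0 of the 10 clock genes passed in hPPARa by edgeR and by DESeq2, where 3.48% of all genes passed by edgeR. Per1 was lower in males (−0.39 ± 0.12, adjusted p = 0.1) and Dbp higher (0.40 ± 0.15, adjusted p = 0.167) at an unadjusted p under 0.05, as the only 2 of the 10, beside 2466 of all 14400 genes. In KO 0 passed by both tools, where 3.41% of all genes did by edgeR, and 0 had an unadjusted p under 0.05, beside 2997 of all 15334 genes.

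Between KO and hPPARa livers, 0 of the 10 clock genes passed edgeR's test within either exposure. The hPPARa mice carry a human transgene, so this contrast may hold more than the loss of the receptor. On vehicle, KO minus hPPARa gave log2 differences from −0.62 to 0.19 and 0 calls by edgeR and by DESeq2, where 3.77% of 15811 genes passed by edgeR. Clock was the 1 of the 10 with an unadjusted p under 0.05 (−0.44 ± 0.19, adjusted p = 0.198), beside 3108 of all 15811 genes. On PFOA the differences ran from −0.65 to 0.64 with 0 calls by edgeR, where 14.9% of all genes passed. Beside 4444 of all 15811 genes, 2 of the 10 had an unadjusted p under 0.05, Per3 (0.64 ± 0.27, adjusted p = 0.139) and Nr1d2 (0.28 ± 0.13, adjusted p = 0.158). The difference between the genotypes' responses to PFOA passed for 0 of the 10 by both tools, where 1.17% of all genes passed by edgeR. At an unadjusted p under 0.05 in edgeR were 0 of the 10, beside 2213 of all 15811 genes. For Clock the response in KO exceeded that in hPPARa by 0.31 ± 0.24 (adjusted p = 0.614), and for Cry1 by 0.16 ± 0.26 (adjusted p = 0.834). The difference was above 0 for 9 of the 10 genes and below it for Npas2 alone, beside a median of 0 over all genes. Values above 0 cover a larger rise in KO as well as a smaller fall. Many of these genes vary together, and the share of all genes above 0 was not computed. The signs therefore add nothing to the tests. These comparisons share the same vehicle and PFOA libraries with those above. With SEs of 0.20 to 1.27, differences of the sizes seen here could not be detected, and they do not show that the genotypes responded alike.

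The other genes of the clock were read from a list of 16, of which 15 could be tested. In hPPARa 0 rose and 5 fell with PFOA, beside 12.8% and 9.76% of all genes, and the list's median was −0.18. They were the PAR bZIP factors Hlf (−0.68 ± 0.12, adjusted p = 0.000955 by edgeR) and Tef (−0.51 ± 0.14, adjusted p = 0.0165), which share the D-box with Dbp, the cryptochrome ubiquitin ligase subunit Fbxl21 (−1.07 ± 0.17, adjusted p = 0.000768), the repressor Bhlhe40 (−0.57 ± 0.17, adjusted p = 0.0298) and the Arntl activator Rora (−0.29 ± 0.09, adjusted p = 0.0346). Without hPPARa female PFOA replicate 2, and without both low-Ciart libraries, the count was 2, Hlf and Fbxl21. Without both, Tef was at −0.31 (adjusted p = 0.0978), Bhlhe40 at −0.33 (adjusted p = 0.145) and Rora at −0.23 (adjusted p = 0.167). In KO 1 of the 15 fell, beside 6.36% of all genes, Hlf (−0.48 ± 0.11, adjusted p = 0.0140), and Tef was at −0.47 ± 0.19 (adjusted p = 0.121). Hlf ran from 66.0 to 94.3 CPM on vehicle and from 46.0 to 72.8 CPM on PFOA in hPPARa, and from 70.1 to 93.4 against 41.9 to 67.3 CPM in KO. All 3 PAR bZIP genes thus fell in hPPARa and Hlf alone passed in KO. Cry2, the sister of Cry1, was at −0.13 ± 0.13 in hPPARa (adjusted p = 0.534) and −0.19 ± 0.10 in KO (adjusted p = 0.222). Nfil3 and Bhlhe41 did not pass in either genotype with the sexes combined. In hPPARa females Bhlhe41 was higher on PFOA (1.52 ± 0.45, adjusted p = 0.0436). Csnk1e, a casein kinase that acts on PER proteins, was lower in hPPARa females (−0.58 ± 0.18, adjusted p = 0.0377) and higher in KO males (0.46 ± 0.12, adjusted p = 0.0318). Without hPPARa female PFOA replicate 2 Bhlhe41 was at 1.97 (adjusted p = 0.0359) and Csnk1e at −0.61 (adjusted p = 0.168), and without both low-Ciart libraries Bhlhe41 was at 1.97 (adjusted p = 0.0508). Between genotypes, Csnk1d, a kinase that marks PER proteins for decay, was higher in KO on vehicle (0.33 ± 0.09, adjusted p = 0.0401) and on PFOA (0.26 ± 0.08, adjusted p = 0.0277), and Rora was higher in KO on PFOA (0.40 ± 0.08, adjusted p = 0.00201).

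Known outputs of the liver clock were followed in a list of 14 genes. In hPPARa 1 rose and 5 fell with PFOA, beside 12.8% and 9.76% of all genes, and the median was −0.55 against −0.01 over all genes. The fallers were Tspan4, a tetraspanin (−0.61, adjusted p = 0.00343 by edgeR), Nampt, the NAD salvage enzyme (−1.02, adjusted p = 0.0177), Lpin1, a phosphatidate phosphatase (−1.77, adjusted p = 0.0193), Coq10b (−1.04, adjusted p = 0.0315) and Pck1, of gluconeogenesis (−0.62, adjusted p = 0.0478). The cell cycle inhibitor Cdkn1a rose in hPPARa (2.32 ± 0.61, adjusted p = 0.0298) and in KO (2.53 ± 0.52, adjusted p = 0.0129), where it was the only gene of the list to pass, beside 7.41% of all genes higher, and the median was −0.27 against −0.02. Without hPPARa female PFOA replicate 2, and without both low-Ciart libraries, 1 output gene passed in hPPARa, Tspan4 (−0.65, adjusted p = 0.00865, and −0.56, adjusted p = 0.00975). Usp2, a direct clock target, was at −1.03 ± 0.39 in hPPARa (adjusted p = 0.0929) and at −0.34 ± 0.54 in KO (adjusted p = 0.736).

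Other signals reach the same genes, and lists for them are read beside 12.8% of all genes higher and 9.76% lower in hPPARa, 22.6% in all, and 13.8% in KO. An unadjusted p under 0.05 by edgeR was held in KO by 4459 of all 15334 genes. Of 11 glucocorticoid response genes, 1 rose and 4 fell in hPPARa and 0 passed in KO (2 at an unadjusted p under 0.05, edgeR); Fkbp5 fell in hPPARa (−1.70 ± 0.26, adjusted p = 0.00173 by edgeR), as did Errfi1, Tsc22d3 and Sult1e1, while Sgk1 rose (0.56 ± 0.14, adjusted p = 0.0131). Of 10 feeding and fasting genes, Angptl4 and Insig2 rose and Cyp7a1 fell in hPPARa, and Angptl4 rose in KO (1.70 ± 0.32, adjusted p = 0.00929). Among the temperature and heat shock genes 1 rose (Hspa1b, 1.56 ± 0.24, adjusted p = 0.000541) and 1 fell (Rbm3, −0.67 ± 0.17, adjusted p = 0.0123) of 10 tested in hPPARa, and 0 of 11 passed in KO (3 at an unadjusted p under 0.05, edgeR). Immediate early genes gave 3 higher and 1 lower of 9 tested in hPPARa and 0 of 10 in KO (4 at an unadjusted p under 0.05, edgeR). Several of these genes, Cyp7a1, Angptl4, Fkbp5 and Rbm3 among them, also vary over the day or with feeding.

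Markers of cell types were read beside the same shares of all genes. The hepatocyte list summed to between 110000 and 202000 CPM on vehicle and between 83200 and 119000 CPM on PFOA in hPPARa, with 5 of its 6 genes lower. In KO it summed to between 87600 and 104000 CPM on vehicle and between 65700 and 86500 CPM on PFOA, with 2 of 6 lower. The neutrophil list was at 0.548 to 1.24 CPM on vehicle and 3.96 to 9.39 CPM on PFOA in hPPARa, and at 0.442 to 2.07 against 88.5 to 325 CPM in KO. Of its 5 genes only 2 could be tested in each genotype, and 1 of these was higher, so the sums do not show a rise of the whole list. The cholangiocyte list was at 50.5 to 186 CPM on vehicle in KO, highest in KO female vehicle replicate 1, and at 15.7 to 46.4 CPM on PFOA. In KO 5 of its 5 genes were lower. In KO males alone 0 of the 5 passed, with a median log2 fold change of −1.23. In hPPARa 3 of 5 endothelial genes were higher. Kupffer cell sums overlapped between exposures in hPPARa (89.2 to 263 against 74.9 to 213 CPM) and in KO (85.9 to 177 against 155 to 261 CPM), while 3 of its 5 genes were lower in hPPARa and 2 of 5 higher in KO. The part of these cells, and of the signals above, in the clock gene levels was not tested.

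Pairs of clock genes were correlated across the 20 libraries, in 45 pairs tested with 100000 permutations of the libraries and Benjamini-Hochberg adjustment. The permutations mixed libraries of all groups, so their p-values also carry the differences between exposures, genotypes and sexes. The values of r within groups were not tested. Most of the 45 pairs had an adjusted p under 0.05 for r, and the pairs below are examples. Clock, for instance, was inversely related to Per3 (r = −0.77, permutation p adjusted to 3e-04) and to Per2 (r = −0.71, adjusted 0.0016). Clock and Cry1 were inversely related (Pearson r = −0.79, permutation p = 3e-05, adjusted 0.00027; Spearman rho = −0.81, permutation p = 2e-05, adjusted 9e-04). Without the 2 libraries farthest from the median Clock level r was −0.82, and it was −0.70 within hPPARa and −0.85 within KO. Over 19 libraries as deviations from their group means, which takes out the group differences, it was −0.72. Pooled over the groups, Clock and Cry1 thus deviated in opposite directions, as they did between the exposures. Not every group showed it: both genes were higher in replicate 2 than in replicate 1 among hPPARa PFOA females and hPPARa vehicle males. Per2 and Per3 rose and fell together (r = 0.85, permutation p = 2e-05, adjusted 0.00027; rho = 0.62, permutation p = 0.0046, adjusted 0.015), with r = 0.69 without 2 libraries, 0.93 in hPPARa, 0.80 in KO and 0.92 within groups. Dbp and Ciart did so as well (r = 0.84, permutation p = 8e-05, adjusted 0.00045; rho = 0.74, permutation p = 0.00021, adjusted 0.0019), with r = 0.60 without 2 libraries, 0.86 in each genotype and 0.88 within groups. Nr1d1 and Dbp, both driven by the E-box arm, showed little relation (r = −0.21, permutation p = 0.38, adjusted 0.39; rho = −0.12, permutation p = 0.63, adjusted 0.63), with r = −0.15 without 2 libraries, −0.48 in hPPARa, −0.13 in KO and 0 within groups.

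**Figure D4:**
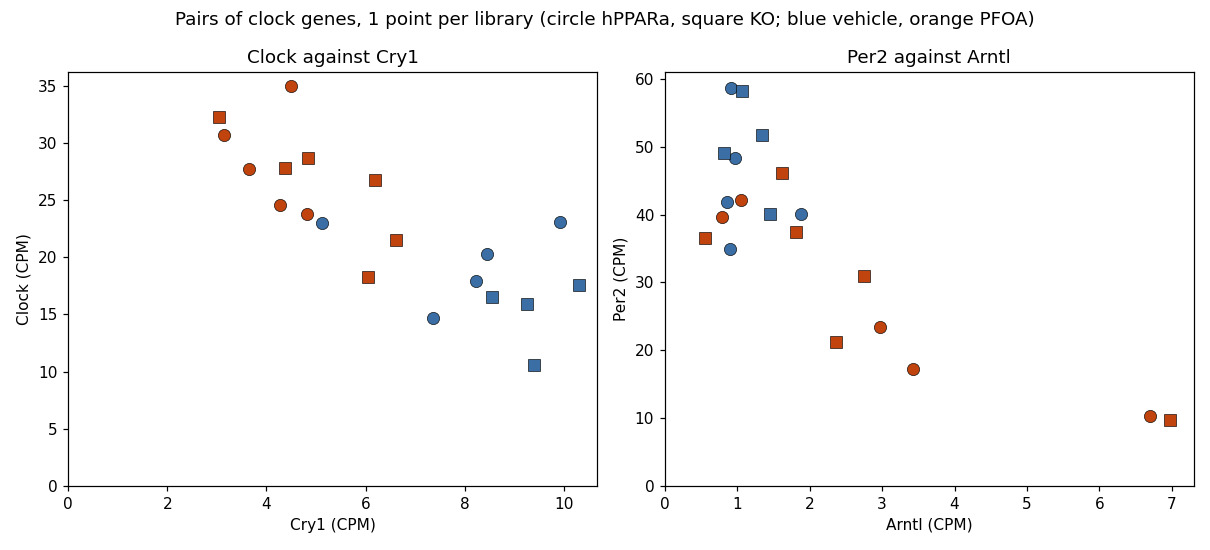
Clock against Cry1 (left) and Per2 against Arntl (right) in CPM, 1 point a library, circles for hPPARa, squares for KO, blue for vehicle and orange for PFOA. Clock falls as Cry1 rises, from 35.0 CPM in hPPARa female PFOA replicate 2 to 10.6 CPM in the KO vehicle female, and the 2 libraries with Arntl at 6.70 and 6.98 CPM have Per2 at 10.3 and 9.70 CPM.

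The genes whose log2 CPM followed Dbp most closely over the 20 libraries, among 11590 genes with a mean of at least 1 CPM, were Usp2 (r = 0.88), Mtss1 (0.86), Spry4, Per3 and Ciart (0.84 each). Over deviations from the group means in 19 libraries they were Ciart (0.88), Usp2 and Gys2 (0.85 each), Rbm4 (0.84) and Abcf1 (0.82), so Ciart and Usp2 were in both lists. For Npas2 they were Prxl2c (0.82), Mpzl1 (0.80), Tuba1b (0.77), Trim2 (0.76) and Jpt1 (0.75) over the 20 libraries and Rab21 and Ncf4 (0.91 each), Prdm11 (0.88), Lsm12 (0.87) and Igsf6 (0.84) over the deviations, with no gene in common. Npas2 rests on few counts and on 3 high libraries. The libraries share 1 source of samples and processing, and the likeness is a description.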

How the data were processed

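The authors deposited 2 tables of raw read counts per gene symbol, 1 for each genotype, with no normalization. Per the labels' protocols, total RNA came from bulk liver with genomic DNA removed, and the submitters' processing notes name cutadapt 1.15, STAR 2.5.3, featureCounts 1.6.1, edgeR 3.36.0 and the build GRCm39; for the annotation and strand setting, neither is given in the sources used here. The PFOA level is written there in µm and was read as micromolar.

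The test was edgeR 4.0.16's, run in R 4.3.3 (TMM, filter on low counts by group, robust quasi-likelihood test, Benjamini-Hochberg adjustment over all genes tested, threshold 0.05), with sex as an additive term, with 4 groups for effects within a sex, and with 1 model of all 20 libraries between genotypes. The SE is the log2 fold change divided by the square root of F. The filter goes by the smallest group, 1 library in KO. CPM, and log2 CPM with a prior count of 2, were computed here. The first comparison of each model was also run on counts simulated from that model's own fitted spread. The outcome is not given here, so it lends the tests no support, and the other comparisons were not simulated. DESeq2 1.42.0, other scaling and filters, a replicate block, a joint fit and libraries left out were tried. The clock genes and the lists were chosen with earlier results of these data known. Likeness used all genes averaging 1 CPM or more, leaving out predicted genes. All 10 clock genes, 8 other clock genes and those past the threshold, and up to 4 genes of each other list with the smallest adjusted p are the genes named, except 1 other clock gene that is not reported here, with Usp2, Coq10b, Pck1 and Sult1e1 named after their values were seen. Promoters are RefSeq's GRCm38.p6, not the authors' build.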

Additional observations from a re-analysis of the deposited data

How the results depend on the processing

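Among the clock genes' own results with PFOA, Cry1 in hPPARa passed under all 16 alternatives and Per1 under all but the joint fit. Counts of clock genes past the threshold moved by over 1.5 times as follows. Leaving out single libraries gave 2 to 6 in hPPARa, 0 to 2 in KO, 1 to 2 in hPPARa males, 0 to 7 in hPPARa females, 0 to 2 in KO males, 0 to 2 in KO females, 0 to 1 for KO against hPPARa on PFOA and 0 to 1 for male against female in hPPARa. Without the filter on low counts the counts were 2 for male against female in hPPARa, 1 for it in KO, 2 for PFOA by sex in hPPARa, 2 in KO males, 2 in KO females and 1 for KO against hPPARa on vehicle. In DESeq2 they were 1 in KO males, 2 in KO females and 1 for KO against hPPARa on PFOA. In the joint fit they were 1 in hPPARa males, 4 in hPPARa females, 1 in KO males and 2 in KO females. Without the 3 libraries with transcripts of the other sex they were 0 in KO, of 9 clock genes tested, and 1 for KO against hPPARa on vehicle. The low-Ciart libraries were chosen after seeing the data, by Ciart and on PFOA only. Without them the counts were 2 in hPPARa, 3 in hPPARa females, 2 in KO males, 0 in KO females and 1 for KO against hPPARa on vehicle. The causes were not tested.

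Signs reversed for 4 results that had not passed. Per1 in KO (0.04) was −0.02 with the replicate block, −0.16 in the joint fit and −0.18 to 0.65 without single libraries. Nr1d2 in KO (0.04) was −0.02 to 0.15 without single libraries, Ciart in KO 0.02 without the low-Ciart libraries, and Nr1d1 by genotype −0.09 without the 3 libraries above. The Ciart value follows from leaving out PFOA libraries for their low Ciart and is not a check of its sign.

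Replicate numbers do not pair the samples: deviations from group means of 22 same-numbered pairs correlated at −0.13 to 0.11, of 42 other pairs at −0.12 to 0.15. With the replicate block the counts were 4 in hPPARa, 2 in KO, 6 in hPPARa females and 0 in KO females. Npas2, at 0 to 57 counts, limits what can be seen of its change.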
